A study of Mus musculus with 9 samples.

Results

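The proteasome genes are the 48 rows of a mouse embryonic stem (ES) cell expression table whose gene symbol begins with Psma, Psmb, Psmc, Psmd, Psme, Psmf or Psmg and a number, out of 24044 rows that carry a gene symbol. Rows that join several symbols were left out, and the row with the highest mean was to be taken where a symbol occurred more than once, which was not needed. By role the 48 rows comprise 7 alpha subunits of the 20S core, 4 beta subunits without catalytic activity, 3 constitutive catalytic beta subunits, 6 ATPases and 11 further subunits of the 19S regulatory particle, 2 immunoproteasome subunits, 3 chaperones of 19S assembly, 4 chaperones of 20S assembly, 4 activators and 1 inhibitor. The others are Psma8, an alpha subunit known from testis, Psmb11, a beta subunit known from thymus, and Psmc3ip, which meets the naming rule but is a meiotic recombination factor and no proteasome subunit. The third immunoproteasome gene, Psmb10, is listed only in a row joined with its neighbour Ctrl (a chymotrypsin-like protease), so its values cannot be told from those of Ctrl; they are given as those of the joined row and are not counted among the 48. Psme2b is likewise found only in a joined row and was not used.

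The study measured messenger RNA by sequencing in 9 libraries, from the ES cell lines E14, v6.5 and Oct4 GiP, each grown on gelatin for 2 weeks in 3 conditions at passages 20 to 23. Paused cells received 200 nM INK128, an inhibitor of the kinase mTOR, for those 2 weeks; 2i cells were in 2i, the name for a medium with inhibitors of MEK and GSK3, with no INK128 in their labels; Serum cells were in serum. Each condition therefore has 3 libraries, 1 per line, and what medium the Paused cells were in beside INK128 is not stated in the labels used here. The 3 lines stand as the replicates of a condition, and the line is a block in the fit. The p-values thus rest on the spread of these single libraries that is left after differences between lines shared by the conditions.

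The proteasome degrades proteins tagged with ubiquitin. Its 20S core is a barrel of alpha and beta rings, in which Psmb5, Psmb6 and Psmb7 hold the chymotrypsin-like, caspase-like and trypsin-like active sites; the 19S particle on its ends binds, unfolds and feeds in the substrates. In cells exposed to interferon gamma, and constitutively in immune cells, Psmb8, Psmb9 and Psmb10 take the places of Psmb5, Psmb6 and Psmb7 and form the immunoproteasome, which yields peptides for MHC class I. When proteasome activity falls short, the transcription factor Nfe2l1 raises the subunit genes together through antioxidant response elements in their promoters.

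Promoters were examined for the motifs of these known regulators, and those of Psmb6, the subunit with the greatest decrease in Paused cells, and of Psmb5, the most abundant and least altered catalytic subunit, are shown since both hold the antioxidant response element. The sequences are the 250 bases before the transcription start in RefSeq's annotation of GRCm38.p6, written 5′ to 3′ on the gene's strand, with the element TGACNNNGC in capitals.
Psmb6, chr11:70525107-70525356, plus strand: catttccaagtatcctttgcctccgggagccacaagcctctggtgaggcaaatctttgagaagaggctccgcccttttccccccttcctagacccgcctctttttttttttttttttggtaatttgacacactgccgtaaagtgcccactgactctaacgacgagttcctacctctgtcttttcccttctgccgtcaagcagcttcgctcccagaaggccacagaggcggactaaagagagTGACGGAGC
Psmb5, chr14:54617996-54618245, minus strand: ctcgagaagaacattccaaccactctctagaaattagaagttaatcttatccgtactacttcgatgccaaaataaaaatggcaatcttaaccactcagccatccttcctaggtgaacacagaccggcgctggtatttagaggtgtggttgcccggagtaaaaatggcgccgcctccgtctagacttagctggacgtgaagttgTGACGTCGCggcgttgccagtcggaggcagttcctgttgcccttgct
The element began 9 bases before the start of Psmb6 and 47 bases before that of Psmb5, whose last printed bases lie within the first exon in the GENCODE M21 annotation. Promoter windows (250 bases before to 50 after the start) were on hand for 40 of the 48 genes and for Psmb10. On either strand, the antioxidant response element was found for 6 of these 41 genes (14.6%; Psmb5, Psmb6, Psmc6, Psmd9, Psmd12 and Psme4), against 14% of the 27025 genes with a window. The interferon-stimulated response element was found for 5 of 41 (12.2%; Psmb3, Psmd4, Psmd9, Psme1 and Psmg4), against 3.99% of genes, and the gamma-activated site TTCNNNGAA for 3 of 41 (7.32%; Psmb8, Psmd2 and Psmg1), against 9.55% of genes. Psmd9 alone held matches to more than 1 of the motifs among the 41, and its matches did not overlap. A match is a stretch of letters and not a measured binding site.

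Of the 48 genes, 47 reached 1 FPKM in at least 3 libraries and were tested. Psmb11 did not, with 0.438 to 0.750 FPKM across the 9 libraries. By definition, FPKM are fragments scaled by transcript length and by the fragments mapped in the library. Fold changes are differences of log2(FPKM + 1), with their standard error (SE). They come from a limma fit over all 12711 rows that passed this filter, with the cell line as a block. A gene was called at a Benjamini-Hochberg adjusted p below 0.05 over the 12711 rows. The depth of the libraries is unknown, since the values are not counts. Averaged over the 9 libraries, Psmb5 stood far above the rest at 1931 FPKM (range 1434 to 2510), followed by Psmb6 at 414 FPKM (295 to 551), Psmb3 at 341 FPKM (259 to 427), Psmb4 at 278 FPKM (235 to 336) and Psmb7 at 262 FPKM (216 to 339). The ranges of these last 4 neighbours overlap each other, whereas that of Psmb5 overlaps none. Psmb5 was 8.63 to 15 times the median of the other core genes within a library, and 109 of its 899 annotated exon bases lie under the microRNA gene Mir686 on the same strand. The lowest of the 31 core and 19S genes was Psmd14 at 91.2 FPKM, and the immunoproteasome genes Psmb8 (2.38 FPKM) and Psmb9 (2.03 FPKM) ranked 46 and 47 of the 48.

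In Paused against Serum cells, 20 of the 31 genes of the 20S core and the 19S particle fell, and so did 2 of the 4 chaperones of 20S assembly. No other of the 47 tested genes was called, while the joined Ctrl,Psmb10 row, which is not counted among them, was called lower. Of the 47 tested genes, 22 (46.8%) fell and 0 rose in the limma fit, whereas 10.5% of all 12711 rows fell and 7.64% rose. At an unadjusted p below 0.05, 34 were lower and 1, Psma8, was higher, against 19.5% and 16.7% of all rows. The median change was -0.39 over the 47 genes and -0.01 over all rows, and 45 of the 47 values were below 0. Lower values in every line were found for 38 of 47 genes, against 32.4% of all rows, and in 35 the 3 Paused libraries lay below all 3 Serum libraries, against 21.3% of all rows. By line, the median was -0.38 (E14), -0.37 (v6.5) and -0.40 (Oct4 GiP). In a second set of columns by the authors, which differ from FPKM by 1 constant per library, the median of all rows moves to -0.88 and that of the proteasome genes to -1.33. There 45 of the 47 genes fell, and so did 9779 of all 12711 rows. Annotated transcripts of the proteasome genes are shorter than those of all tested rows, with a median of 1907 against 3200 bases. With a term for length and GC content 13 of 47 fell, with a median of -0.30 (share of all rows not given here). None of the 22 calls held without each library in turn, in fits in which few rows were called at all: without any Paused library, or without Serum Oct4 GiP, 0 proteasome genes and 4 to 21 of the 12711 rows were called lower, and without Serum E14 or Serum v6.5, 7 and 10 proteasome genes (3.32% and 3.96% of all rows).

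**Figure D1:**
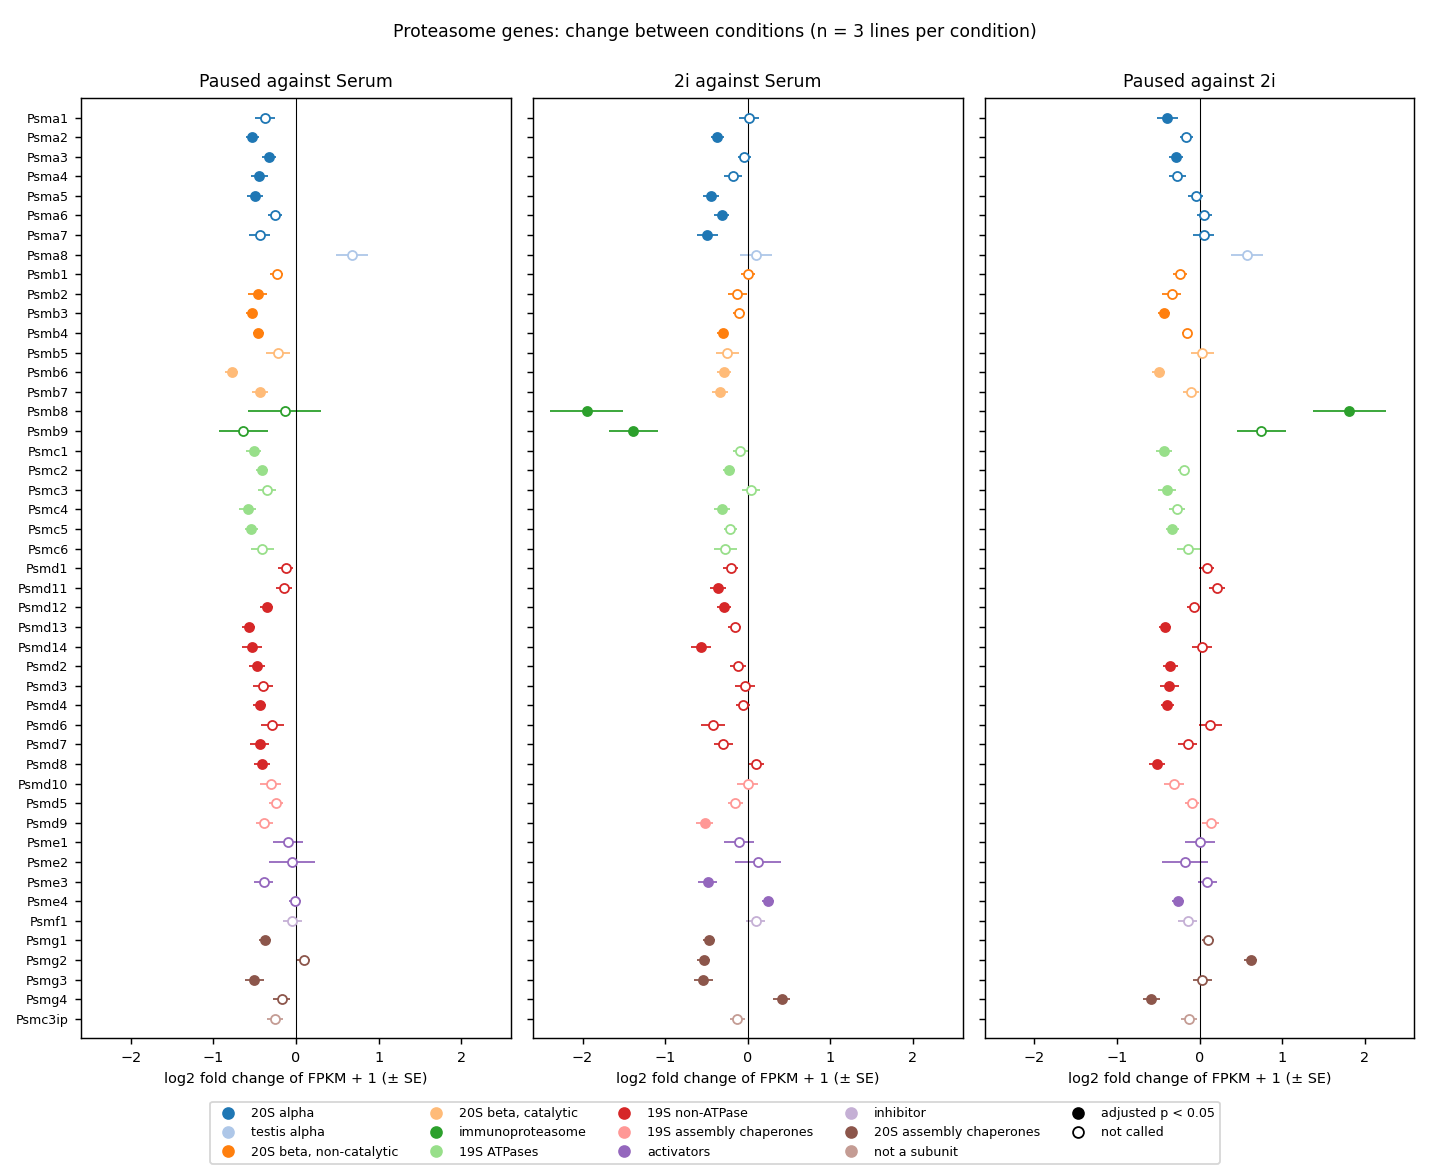
Log2 fold change of FPKM + 1 (horizontal axis, bars ± SE, n = 3 lines per condition) of the 47 tested proteasome genes, coloured by class, with filled points for adjusted p below 0.05. In Paused against Serum 45 of 47 points lie left of 0; in 2i against Serum the immunoproteasome genes Psmb8 and Psmb9 lie farthest left.

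The 20S core fell in Paused cells in its alpha and beta rings. Of the 14 core genes, 9 (64.3%) were lower and 0 higher than in Serum cells, against 10.5% and 7.64% of all rows. Their median was -0.44, and 13 of 14 were lower in every line (32.4% of all rows), the exception being Psmb5. Among the alpha subunits, which form the gated outer rings, 4 of 7 fell. Psma2 had 153, 148 and 154 FPKM in Paused cells (E14, v6.5 and Oct4 GiP), 185, 158 and 168 FPKM in 2i cells and 215, 226 and 220 FPKM in Serum cells. Its Paused values lay below those of both other conditions, and it changed by -0.53 ± 0.08 (adjusted p = 0.014) against Serum. Psma5 had 117, 120 and 118 FPKM in Paused cells, 138, 112 and 118 FPKM in 2i cells and 161, 172 and 169 FPKM in Serum cells, and its Paused and 2i values overlapped while all 6 lay below Serum (-0.49 ± 0.09 for Paused against Serum, adjusted p = 0.022). Psma4 had 127, 131 and 123 FPKM in Paused cells, 182, 147 and 133 FPKM in 2i cells and 171, 173 and 176 FPKM in Serum cells. Its Paused values lay below all others, and the change against Serum was -0.44 ± 0.11 (adjusted p = 0.039). Psma3 was the fourth alpha subunit to fall (-0.33 ± 0.08, adjusted p = 0.041), and the changes of the other 3, Psma1, Psma6 and Psma7, were -0.26 to -0.44 and not called.

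Among the beta subunits without catalytic activity 3 of 4 fell in Paused cells (10.5% of all rows). Psmb3 had 269, 259 and 276 FPKM in Paused cells, 347, 339 and 401 FPKM in 2i cells and 389, 357 and 427 FPKM in Serum cells. Paused libraries were lowest throughout, 2i and Serum overlapped, and the change was -0.54 ± 0.07 (adjusted p = 0.013) against Serum. Psmb4 had 235, 236 and 249 FPKM in Paused cells, 265, 262 and 271 FPKM in 2i cells and 319, 336 and 333 FPKM in Serum cells, so that the 3 conditions did not overlap and stood in the order Paused, 2i, Serum (-0.46 ± 0.06 for Paused against Serum, adjusted p = 0.014). Psmb2 had 125, 119 and 139 FPKM in Paused cells, 182, 152 and 151 FPKM in 2i cells and 164, 189 and 175 FPKM in Serum cells. Again the Paused libraries lay below all others, with a change of -0.46 ± 0.12 (adjusted p = 0.04) against Serum. Psmb1, at -0.23 ± 0.08 (adjusted p = 0.089), was not called.

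Of the catalytic subunits, Psmb6 and Psmb7 fell in Paused cells and Psmb5 was not called. Psmb6, the caspase-like site (gene at chr11:70525367-70527858, plus strand, GRCm38), had 295, 300 and 307 FPKM in Paused cells (E14, v6.5 and Oct4 GiP), 452, 387 and 435 FPKM in 2i cells and 490, 511 and 551 FPKM in Serum cells. The 3 conditions did not overlap, and Psmb6 averaged 301 ± 6.5 FPKM in Paused, 424 ± 33.6 FPKM in 2i and 517 ± 30.9 FPKM in Serum cells (SD, n = 3 each). Its change of -0.78 ± 0.08 (adjusted p = 0.0099) was the greatest decrease of any tested proteasome gene in this comparison. Psmb7, the trypsin-like site (chr2:38588036-38644087, minus strand), had 216, 241 and 230 FPKM in Paused cells, 268, 239 and 231 FPKM in 2i cells and 284, 339 and 308 FPKM in Serum cells. Paused and 2i values overlapped and lay below all Serum values; the change in Paused cells was -0.43 ± 0.10 (adjusted p = 0.031). Psmb5, the chymotrypsin-like site (chr14:54614119-54618022, minus strand), had 1434, 2228 and 1907 FPKM in Paused cells, 1702, 1651 and 2028 FPKM in 2i cells and 1853, 2064 and 2510 FPKM in Serum cells. Its conditions overlapped, with E14 the lowest and v6.5 the highest Paused library, and the change against Serum was -0.22 ± 0.14 (adjusted p = 0.31). The ratio of Psmb6 to Psmb7 FPKM was 1.36, 1.24 and 1.34 in Paused cells, 1.68, 1.62 and 1.88 in 2i cells and 1.72, 1.51 and 1.79 in Serum cells.

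**Figure D2:**
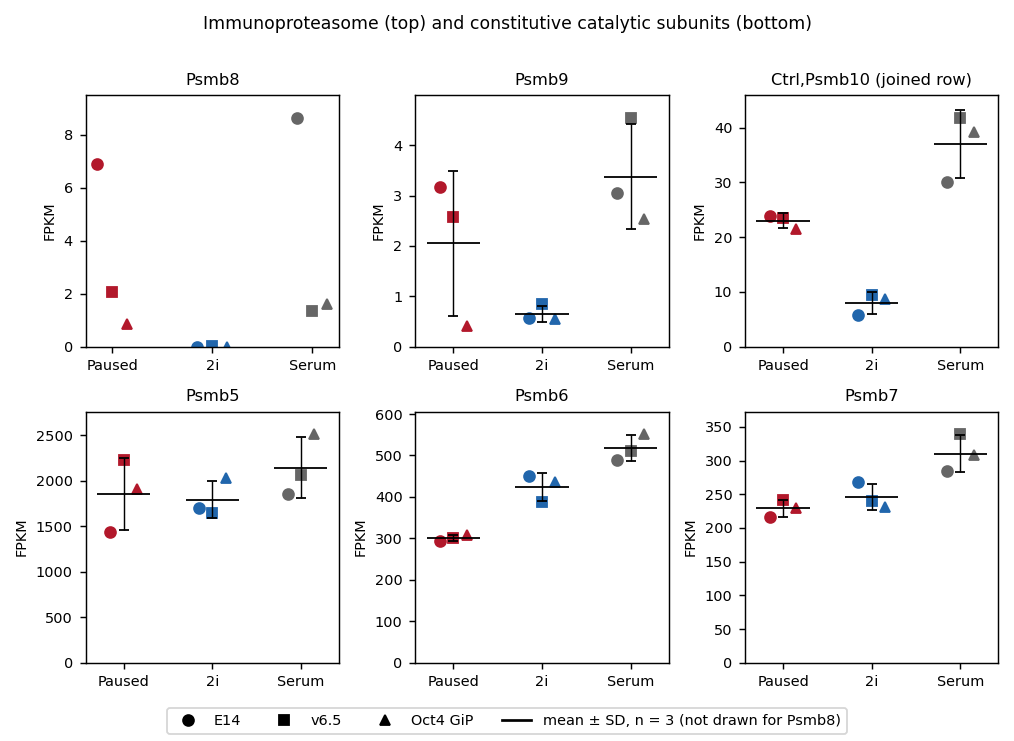
FPKM (vertical axis, from 0) of the immunoproteasome rows (top) and of the constitutive catalytic subunits (bottom) in each library, with the line as marker and the mean ± SD (n = 3) as bars, except for Psmb8. The 2i libraries of Psmb8, Psmb9 and the joined Ctrl,Psmb10 row lie low, and Psmb6 has its lowest values in Paused cells.

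Genes of the 19S particle were lower in Paused cells as well. Of its 17 genes, 11 (64.7%) were lower and 0 higher in Paused than in Serum cells, against 10.5% and 7.64% of all rows. Their median was -0.42, and all 17 were lower in every line (32.4% of all rows). Among the 6 ATPases, which unfold substrates and open the core, 4 fell. Psmc4 had 128, 150 and 148 FPKM in Paused cells (E14, v6.5 and Oct4 GiP), 185, 171 and 159 FPKM in 2i cells and 215, 209 and 216 FPKM in Serum cells. Paused values lay below all others, and the change against Serum was -0.59 ± 0.10 (adjusted p = 0.017). Psmc5 had 171, 188 and 179 FPKM in Paused cells, 241, 217 and 218 FPKM in 2i cells and 253, 267 and 264 FPKM in Serum cells. The 3 conditions did not overlap, and the change in Paused cells was -0.54 ± 0.08 (adjusted p = 0.014) against Serum. Psmc1 had 124, 175 and 129 FPKM in Paused cells, 185, 206 and 179 FPKM in 2i cells and 189, 214 and 203 FPKM in Serum cells. Its Paused values lay below all others, v6.5 being the highest of them (-0.52 ± 0.10 against Serum, adjusted p = 0.022).

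Among the 11 subunits without ATPase activity 7 fell (10.5% of all rows). Psmd13, a subunit of the 19S lid, had 79.5, 84.4 and 86.8 FPKM in Paused cells, 118, 111 and 107 FPKM in 2i cells and 125, 123 and 126 FPKM in Serum cells. The Paused libraries lay below all others and the 2i libraries below the Serum libraries, and the change in Paused cells was -0.57 ± 0.08 (adjusted p = 0.013). Psmd14, the deubiquitinase that removes ubiquitin chains as substrates enter, had 76, 83.6 and 78.8 FPKM in Paused cells, 93.5, 71.4 and 70.7 FPKM in 2i cells and 114, 114 and 118 FPKM in Serum cells. Serum was highest in every line and the other conditions overlapped (-0.54 ± 0.12, adjusted p = 0.031). Psmd2, a scaffold subunit that binds ubiquitin-like domains, had 139, 158 and 147 FPKM in Paused cells, 210, 184 and 175 FPKM in 2i cells and 198, 211 and 207 FPKM in Serum cells. Paused lay below both other conditions, which overlapped, with a change of -0.47 ± 0.09 (adjusted p = 0.025) against Serum. Summed over the 31 core and 19S genes, FPKM in Paused cells were 0.738, 0.826 and 0.735 of the Serum value of the same line (E14, v6.5, Oct4 GiP). The sum in v6.5 holds the high Paused value of Psmb5; without Psmb5, the mean FPKM per 19S gene stood to the mean FPKM per core gene as 0.648, 0.718 and 0.683 in Paused, 0.687, 0.703 and 0.661 in 2i and 0.661, 0.651 and 0.654 in Serum libraries, so that the ranges overlapped. In bulk RNA, fewer cells of a type and less RNA per cell cannot be told apart.

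**Figure D3:**
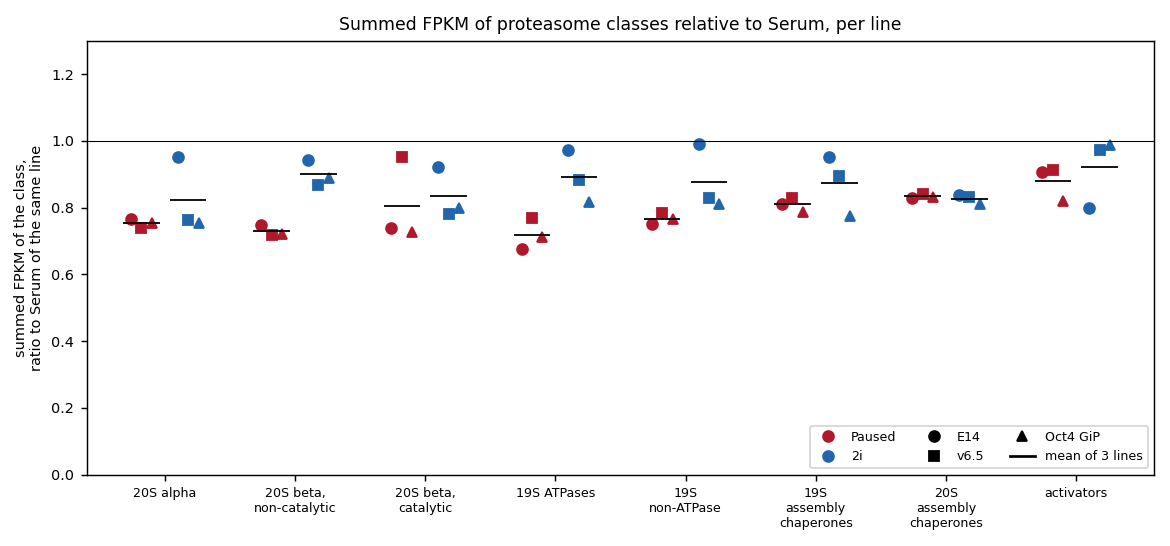
Summed FPKM of each class in Paused and 2i cells as a ratio to Serum of the same line (vertical axis, 1 = Serum), with a marker per line and the mean of 3 lines as a bar. The Paused values of the alpha, non-catalytic beta and 19S classes lie between 0.675 and 0.785, and the 2i values of E14 lie nearest to 1 in these classes.

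In 2i against Serum cells fewer core and 19S genes were called than in Paused cells. Of the 31, 12 (38.7%) fell and 0 rose in the limma fit, whereas 18.9% of all rows fell and 21.7% rose. Of all 47 genes, 19 (40.4%) fell and 2 (4.26%) rose. The 19 include Psmb8 and Psmb9, which had the greatest decreases. Both passed the filter through Paused and Serum libraries alone, a choice that favours lower 2i values. The median change was -0.21, against 0.02 over all rows, and 38 of 47 values were below 0. In every line 27 genes were lower, against 30.0% of all rows, and in 22 the groups did not overlap with 2i lower, against 22.4% of all rows. By line, the median was -0.12 (E14), -0.29 (v6.5) and -0.29 (Oct4 GiP); whether E14 differs from the other lines could not be tested with 1 library per line and condition. Since the 2i and the Paused comparison share the Serum libraries, their values are only set side by side: 11 genes were called lower in both, 11 in Paused and not in 2i cells, and 8 in 2i and not in Paused cells. The 11 called in both were Psma2, Psma5, Psmb4, Psmb6, Psmb7, Psmc2, Psmc4, Psmd12, Psmd14, Psmg1 and Psmg3. The same counts over all rows are not given here, so whether this overlap is unusual is unknown.

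In the core, 7 of 14 genes (50%) fell in 2i cells (median -0.27) and in the 19S particle 5 of 17 (29.4%, median -0.21), against 18.9% of all rows. In either, 0 were higher at an adjusted p or an unadjusted p below 0.05 (21.7% and 27.0% of all rows). Psma7 had 188, 190 and 184 FPKM in Paused cells, 220, 173 and 155 FPKM in 2i cells and 240, 288 and 238 FPKM in Serum cells. The Serum libraries lay above all others and 2i E14 above the rest of these, with a change of -0.49 ± 0.13 (adjusted p = 0.024) in 2i against Serum. Psma5 changed by -0.45 ± 0.09 (adjusted p = 0.012), Psma2 by -0.37 ± 0.08 (adjusted p = 0.013) and Psma6 by -0.32 ± 0.09 (adjusted p = 0.031). Psma6 had 221, 212 and 223 FPKM in Paused cells, 227, 206 and 197 FPKM in 2i cells and 265, 236 and 286 FPKM in Serum cells, with Serum above all others. In the beta rings, Psmb4 changed by -0.31 ± 0.06 (adjusted p = 0.012), Psmb7 by -0.33 ± 0.10 (adjusted p = 0.036) and Psmb6 by -0.29 ± 0.08 (adjusted p = 0.032), while Psmb5 was not called (-0.25 ± 0.14, adjusted p = 0.19). Psmb6 was the catalytic subunit with the smaller of the called changes here and with the greater one in Paused cells. In the 19S particle, Psmc4 changed by -0.32 ± 0.10 (adjusted p = 0.042) and Psmc2 by -0.22 ± 0.07 (adjusted p = 0.045). Psmc2 had 113, 116 and 121 FPKM in Paused cells, 134, 136 and 130 FPKM in 2i cells and 158, 150 and 161 FPKM in Serum cells, without overlap of the 3 conditions. Psmd14 (-0.56 ± 0.12, adjusted p = 0.012), Psmd11 (-0.36 ± 0.10, adjusted p = 0.027) and Psmd12 (-0.29 ± 0.08, adjusted p = 0.032) were the called subunits without ATPase activity, all of them in the lid. Psmd11 had 105, 114 and 108 FPKM in Paused cells, 100, 88.1 and 94.4 FPKM in 2i cells and 109, 128 and 126 FPKM in Serum cells, and here the 2i libraries lay below all others while Paused and Serum overlapped. Psmd12 had 114, 110 and 106 FPKM in Paused cells, 124, 106 and 116 FPKM in 2i cells and 137, 135 and 151 FPKM in Serum cells, with Serum above all others and Paused and 2i overlapping.

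Set directly against 2i cells, Paused cells had lower levels of 14 of 47 genes (29.8%) and higher levels of 2 (4.26%). Of all rows 24.6% were lower and 19.8% higher, so the share of lower genes was near that of all rows. The 2 higher genes were Psmg2 and Psmb8, the latter having passed the filter through Paused and Serum libraries alone. The median was -0.15, against -0.03 over all rows, and 31 values were below 0. In every line 23 genes were lower, against 36.7% of all rows, and in 22 the groups did not overlap with Paused lower, against 28.3%. The core held 4 of the 14 decreases (28.6% of its genes) and the 19S particle 8 (47.1%), with medians of -0.20 over 14 and -0.27 over 17 genes. The core genes were Psmb6 (-0.49 ± 0.08, adjusted p = 0.0047), Psmb3 (-0.43 ± 0.07, adjusted p = 0.0046), Psma1 (-0.39 ± 0.12, adjusted p = 0.043) and Psma3 (-0.29 ± 0.08, adjusted p = 0.031). Psma1 had 90.7, 110 and 105 FPKM in Paused cells, 154, 127 and 121 FPKM in 2i cells and 128, 142 and 126 FPKM in Serum cells. Psma3 had 102, 109 and 109 FPKM in Paused cells, 138, 130 and 122 FPKM in 2i cells and 128, 143 and 131 FPKM in Serum cells. In both genes the Paused libraries lay below all others and 2i and Serum overlapped. Among the ATPases Psmc1 (-0.43 ± 0.10, adjusted p = 0.013), Psmc3 (-0.39 ± 0.11, adjusted p = 0.029) and Psmc5 (-0.33 ± 0.08, adjusted p = 0.018) were lower. Psmc3 had 139, 158 and 162 FPKM in Paused cells, 226, 189 and 189 FPKM in 2i cells and 194, 184 and 207 FPKM in Serum cells, again with Paused below the overlapping 2i and Serum libraries. Psmd8, a lid subunit, had 87.8, 92.4 and 92.9 FPKM in Paused cells, 143, 136 and 114 FPKM in 2i cells and 125, 120 and 119 FPKM in Serum cells. Its Paused values lay below all others and its 2i and Serum values overlapped, with a change of -0.51 ± 0.09 (adjusted p = 0.0065) against 2i. Psmd13 (-0.42 ± 0.08, adjusted p = 0.0066) and the ubiquitin receptor Psmd4 (-0.39 ± 0.08, adjusted p = 0.011) followed. Psmd4 had 114, 127 and 114 FPKM in Paused cells, 162, 153 and 149 FPKM in 2i cells and 162, 154 and 166 FPKM in Serum cells, and Psmd3, which was called too (-0.37 ± 0.12, adjusted p = 0.045), had 128, 128 and 113 FPKM in Paused cells, 201, 140 and 142 FPKM in 2i cells and 172, 152 and 164 FPKM in Serum cells. Paused was the lowest condition in all libraries of both genes. The median over the 31 core and 19S genes was -0.37 for E14, -0.17 for v6.5 and -0.12 for Oct4 GiP.

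**Figure D4:**
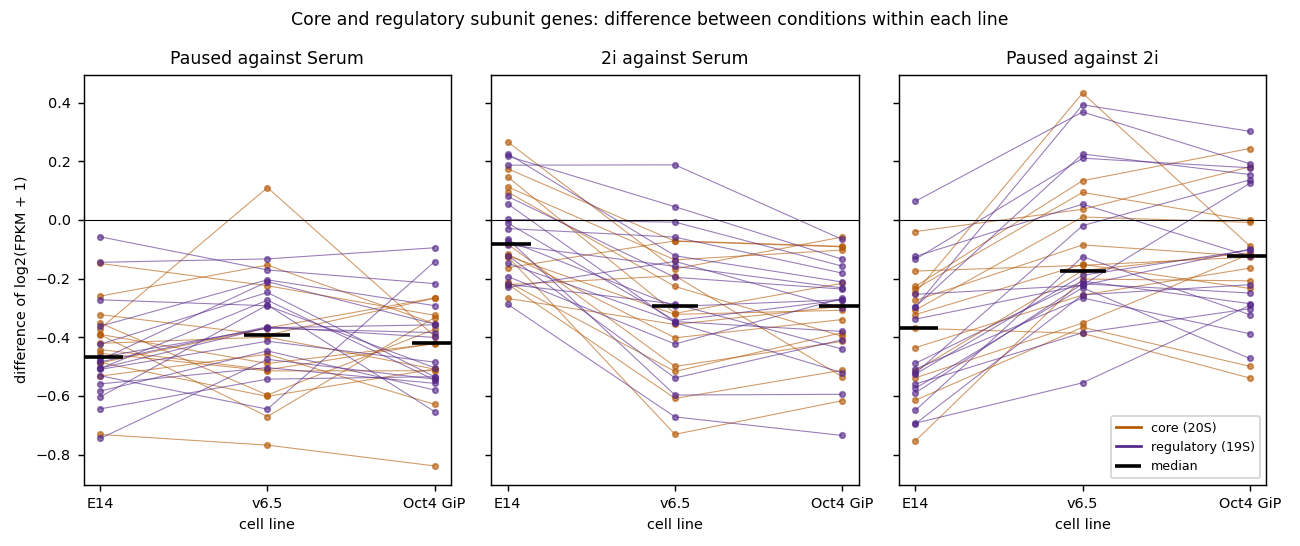
Difference of log2(FPKM + 1) between conditions (vertical axis) within each cell line (horizontal axis) for the 14 core and 17 19S genes, a line per gene, with the median as a black bar. Medians of Paused against Serum lie at -0.47, -0.39 and -0.42 (lines in the order of the axis), and those of 2i against Serum at -0.08, -0.29 and -0.29.

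The immunoproteasome genes Psmb8 and Psmb9 were low in all libraries and lowest in 2i cells, apart from Psmb9 in Paused Oct4 GiP. All their 2i values were below 1 FPKM, so they passed the filter through Paused and Serum libraries alone. Neither passed a stricter filter of 5 FPKM in 3 libraries. In a limma fit without the filter both were called lower in 2i than in Serum cells (adjusted p = 0.03 and 0.025). Psmb8 (chr17:34197721-34201454, plus strand), which replaces Psmb5, had 6.89, 2.05 and 0.841 FPKM in Paused cells (E14, v6.5 and Oct4 GiP), 0, 0.0261 and 0 FPKM in 2i cells and 8.62, 1.35 and 1.61 FPKM in Serum cells. Every 2i library lay below every other library, 2 of them listed at 0, and in Paused and Serum cells E14 was the highest. An exact 0 can be a failed estimate. In this table FPKM under the name Eef1a1, an elongation factor gene used by all cells, sum to 0 over the 9 libraries. That sum would also be 0 if no row had this name alone, which it does not tell. On the log2(FPKM + 1) scale, which understates changes of low genes, Psmb8 changed by -1.95 ± 0.44 (adjusted p = 0.016) in 2i against Serum, by 1.81 ± 0.44 (adjusted p = 0.018) in Paused against 2i and by -0.14 ± 0.44 (adjusted p = 0.85) in Paused against Serum. In Paused against 2i the call was lost without the line as a block (adjusted p = 0.053), with a pseudocount of 5, without Paused E14 (1.56) and without Paused v6.5 (1.74). The value was 1.19 without 2i E14. In 2i against Serum it was lost without Serum E14 (-1.58) and without Serum Oct4 GiP (-2.0). Psmb9 (chr17:34181987-34187764, minus strand), which replaces Psmb6, had 3.16, 2.57 and 0.413 FPKM in Paused cells, 0.572, 0.84 and 0.54 FPKM in 2i cells and 3.06, 4.54 and 2.54 FPKM in Serum cells. The 2i libraries lay below all Serum libraries but above Paused Oct4 GiP, the lowest of the 9. Psmb9 changed by -1.39 ± 0.30 (adjusted p = 0.013) in 2i against Serum, a call lost without Serum Oct4 GiP (-1.26), while Paused against Serum (-0.64 ± 0.30, adjusted p = 0.17) and Paused against 2i (0.75 ± 0.30, adjusted p = 0.082) were not called. Without Paused Oct4 GiP, Psmb9 was called higher in Paused than in 2i cells (1.13, adjusted p = 0.016). On the authors' second scale, where 9779 of all 12711 rows fell, Psmb9 was called in Paused against Serum, at -1.63 and an adjusted p of 0.0036.

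The joined row of Ctrl and Psmb10 (Psmb10 lies at chr8:105935735-105938444, minus strand) had 24, 23.6 and 21.4 FPKM in Paused cells, 5.68, 9.43 and 8.67 FPKM in 2i cells and 30.1, 41.7 and 39.3 FPKM in Serum cells. The conditions did not overlap and stood in the order 2i, Paused, Serum. The row changed by -2.10 ± 0.15 (adjusted p = 0.00079) in 2i against Serum, by 1.45 ± 0.15 (adjusted p = 0.0012) in Paused against 2i and by -0.65 ± 0.15 (adjusted p = 0.033) in Paused against Serum. The last was not called without the line block (adjusted p = 0.056), with the length and GC term (adjusted p = 0.082), without the filter on low values, or without any single Paused or Serum library or 2i Oct4 GiP (-0.85 to -0.55). Set against the subunits they replace, Psmb8 was 0.0441 to 0.481% of Psmb5 in Paused cells, 0 to 0.00158% in 2i cells and 0.064 to 0.465% in Serum cells. Psmb9 was 0.134 to 1.07% of Psmb6 in Paused, 0.124 to 0.217% in 2i and 0.461 to 0.887% in Serum cells, and the joined row 9.32 to 11.1%, 2.12 to 3.94% and 10.6 to 12.7% of Psmb7 in Paused, 2i and Serum cells. Thus the constitutive subunits exceeded their counterparts in all 9 libraries. Exons of Psmb9 share 212 bases with Tap1 and those of Psmb8 498 bases with the antisense gene Gm20496, both on the opposite strand; the sources used here do not say whether reads were counted by strand.

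Markers of other cell types moved with these genes in part. Of 6 blood and immune markers, Ptprc reached at most 0.109 FPKM and Lyz2 0.0332 FPKM in any library. The sum of the 6 was 27.8 to 34.8 FPKM in Paused, 103 to 130 FPKM in 2i and 42.4 to 52.3 FPKM in Serum cells, so that it was highest where Psmb8 was lowest. Most of it was Laptm5, except in Serum v6.5, where Cd74 had 27.8 FPKM. Cd74 also had 46.6 FPKM in 2i E14, but 0.980 FPKM in 2i v6.5 and 0.364 FPKM in 2i Oct4 GiP. Coro1a went the other way and was lowest in 2i cells. It had 3.22, 4.30 and 2.24 FPKM in Paused, 1.47, 0.732 and 0.900 FPKM in 2i and 4.38, 9.37 and 4.67 FPKM in Serum cells (E14, v6.5 and Oct4 GiP). The 7 markers of fibroblast feeder cells summed to 4.77 to 11 FPKM in Paused, 1.49 to 2.71 FPKM in 2i and 26.7 to 125 FPKM in Serum cells, in the same order as the joined Psmb10 row. Of the 7, 4 were below 1 FPKM in every library, and Tagln was the highest except in 2i E14, where Thy1 had 0.675 FPKM and Tagln 0.565 FPKM. The 6 trophoblast markers summed to 25.1 to 48.3 FPKM in Paused, 41.0 to 71.5 FPKM in 2i and 63.0 to 314 FPKM in Serum cells. Krt8 (24.4 to 161 FPKM) and Krt18 (18.7 to 108 FPKM) were the highest of them in every Serum library. Tfap2c was instead highest in 2i cells in every line, Cdx2 reached at most 2.51 FPKM and Elf5 0.059 FPKM. The 6 endoderm markers summed to 11.7 to 16.3, 13.5 to 18.4 and 5.29 to 14.4 FPKM in Paused, 2i and Serum cells, with Lama1 the highest in every library. No marker of these lists was at 0 in every library, and their part in the results was not tested. The 8 ES cell markers summed to 6184 to 6642 FPKM in Paused, 3919 to 4664 FPKM in 2i and 4322 to 5678 FPKM in Serum cells, and each was detected in all 9 libraries.

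The chaperones of 20S assembly did not move as a group in 2i cells. Psmg1 and Psmg2 form one dimer and Psmg3 and Psmg4 another, and both guide the alpha ring. Against Serum, 3 of the 4 fell and 1 rose in 2i cells (18.9% and 21.7% of all rows). In Paused cells 2 fell and 0 rose (10.5% and 7.64% of all rows). Psmg1 had 77, 75.2 and 80.5 FPKM in Paused cells (E14, v6.5 and Oct4 GiP), 69.7, 67.4 and 80.5 FPKM in 2i cells and 97.4, 100 and 105 FPKM in Serum cells. Paused and 2i values overlapped below all Serum values, with -0.37 ± 0.07 (adjusted p = 0.023) for Paused and -0.47 ± 0.07 (adjusted p = 0.0044) for 2i against Serum. Its partner Psmg2 had 44.1, 36.8 and 41.1 FPKM in Paused cells, 30.3, 22 and 26.3 FPKM in 2i cells and 41.7, 35.1 and 37.6 FPKM in Serum cells. All 2i libraries were below all others, while Paused and Serum overlapped; the change was -0.53 ± 0.08 (adjusted p = 0.0039) in 2i against Serum, 0.62 ± 0.08 (adjusted p = 0.002) in Paused against 2i and 0.09 ± 0.08 (adjusted p = 0.45) in Paused against Serum. On the authors' second scale Paused against 2i was 0.08 (adjusted p = 0.67) and Paused against Serum turned to -0.83 (adjusted p = 0.0017).

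Psmg3 had 20.7, 18.6 and 21 FPKM in Paused cells, 21.5, 19.8 and 17.6 FPKM in 2i cells and 29.5, 25.1 and 32.6 FPKM in Serum cells. Paused and 2i values overlapped below Serum, with -0.51 ± 0.12 (adjusted p = 0.032) for Paused and -0.54 ± 0.12 (adjusted p = 0.013) for 2i against Serum. Its partner Psmg4, named after its values were seen, had 35.7, 31.6 and 40.4 FPKM in Paused cells, 57.6, 51.1 and 53.4 FPKM in 2i cells and 45.3, 32.7 and 44.5 FPKM in Serum cells. Here 2i was highest in every library and Paused and Serum overlapped. Psmg4 rose in 2i against Serum by 0.41 ± 0.10 (adjusted p = 0.021), a call lost without the line block (adjusted p = 0.059) and on the authors' second scale (0.05, adjusted p = 0.81), and was lower in Paused than in 2i cells (-0.58 ± 0.10, adjusted p = 0.0058). Of the 3 chaperones of 19S assembly, Psmd9 fell in 2i cells. Psmd9 had 11.1, 12.2 and 11.8 FPKM in Paused cells, 11.8, 10.4 and 9.61 FPKM in 2i cells and 14.8, 17 and 15.1 FPKM in Serum cells, with 2i and Paused overlapping below Serum (-0.52 ± 0.10, adjusted p = 0.011 in 2i and -0.38 ± 0.10, adjusted p = 0.051 in Paused cells against Serum). Psmd5 and Psmd10 were called in no comparison and had no value beyond -0.31.

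**Figure D5:**
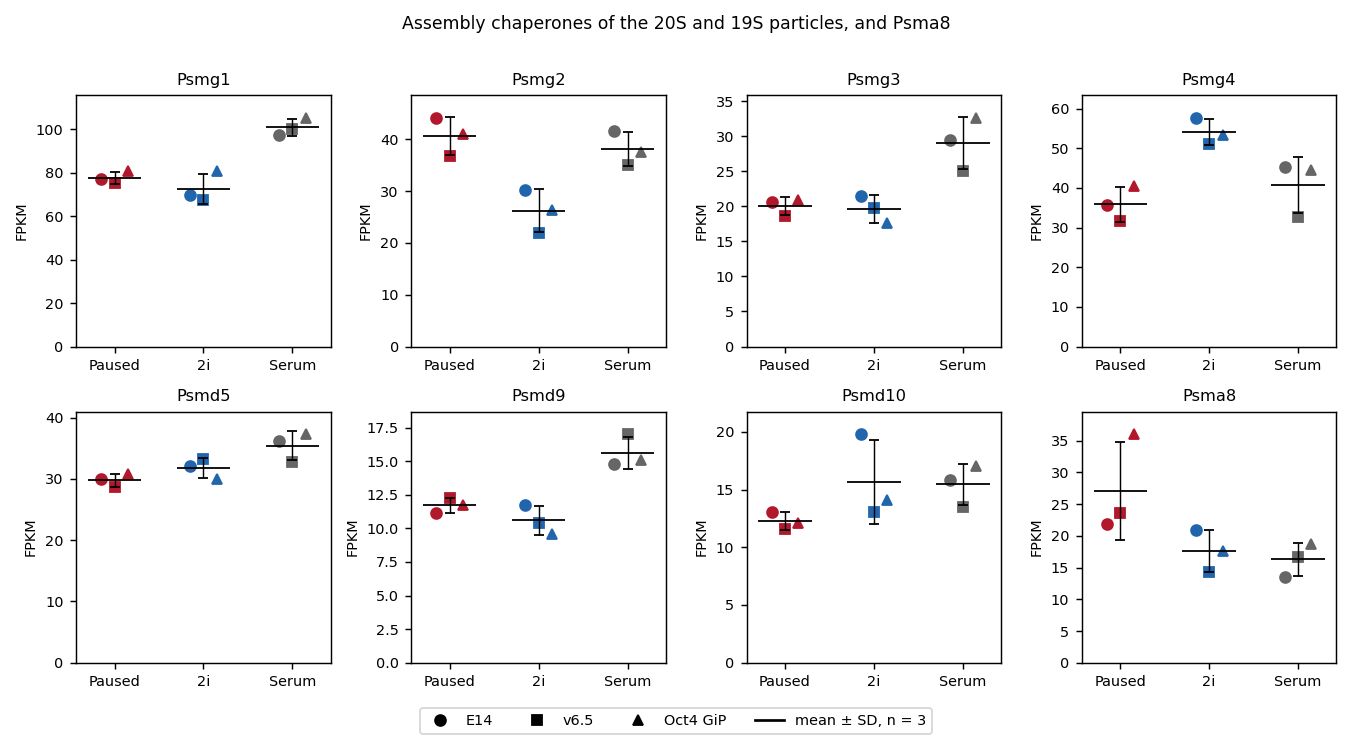
FPKM (vertical axis, from 0) of the 20S assembly chaperones Psmg1 to Psmg4, the 19S assembly chaperones Psmd5, Psmd9 and Psmd10, and Psma8 in each library, with the line as marker and the mean ± SD (n = 3) as bars. Psmg2 is lowest and Psmg4 highest in the 2i libraries, and Psma8 is highest in the Paused libraries.

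Of the 4 activators, 0 were called in Paused against Serum, where 10.5% of all rows fell and 7.64% rose. At an unadjusted p below 0.05, 1 was lower (19.5% of all rows). In 2i against Serum 1 rose and 1 fell (25% each), near the 21.7% and 18.9% of all rows. Psme1 and Psme2 form the interferon-inducible PA28 ring that opens the 20S core. Psme1 had 75.8, 51.8 and 51.4 FPKM in Paused cells (E14, v6.5 and Oct4 GiP), 51.3, 58.5 and 67 FPKM in 2i cells and 75.5, 54.1 and 61.1 FPKM in Serum cells, and Psme2 had 64.9, 45.1 and 34.9 FPKM in Paused cells, 44.7, 54.9 and 60.2 FPKM in 2i cells and 72.5, 34.4 and 45.4 FPKM in Serum cells. All conditions overlapped in both genes and no comparison was called. E14 was highest in Paused and Serum cells and lowest in 2i cells. Psme3, the nuclear homologue of these activators, had 72.2, 73 and 70.6 FPKM in Paused cells, 79.5, 61.3 and 62.7 FPKM in 2i cells and 89.4, 101 and 94.1 FPKM in Serum cells. The Serum libraries lay above all others, which overlapped each other, and the change was -0.49 ± 0.11 (adjusted p = 0.017) in 2i and -0.39 ± 0.11 (adjusted p = 0.058) in Paused cells against Serum. Psme4, the large nuclear activator PA200, had 37.6, 44.2 and 38.1 FPKM in Paused cells, 45.5, 53.5 and 45.3 FPKM in 2i cells and 39.2, 44.7 and 37.4 FPKM in Serum cells. The 2i libraries lay above all others and Paused and Serum overlapped. Psme4 rose in 2i against Serum by 0.25 ± 0.07 (adjusted p = 0.03), but the value turned to -0.12 on the authors' second scale and the call was lost without the line block (adjusted p = 0.12), relative to the median gene (adjusted p = 0.13) and with the length and GC term (adjusted p = 0.054). It was lower in Paused than in 2i cells (-0.26 ± 0.07, adjusted p = 0.023).

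Psmf1, known as a proteasome inhibitor, had 10.1, 11.3 and 8.83 FPKM in Paused cells, 13.8, 11 and 9.2 FPKM in 2i cells and 11, 11.2 and 9.1 FPKM in Serum cells. All conditions overlapped and none was called. Psma8, which takes the place of Psma7 in germ cells of the testis, had 21.8, 23.5 and 36 FPKM in Paused cells (E14, v6.5 and Oct4 GiP), 21, 14.3 and 17.6 FPKM in 2i cells and 13.5, 16.7 and 18.6 FPKM in Serum cells. The Paused libraries lay above all others, but the change missed the threshold against Serum (0.68 ± 0.19, adjusted p = 0.057) and against 2i (0.58 ± 0.19, adjusted p = 0.051), and against Serum the value was -0.22 on the authors' second scale. Relative to the median gene, Psma8 was called in Paused against 2i (0.66, adjusted p = 0.029). In the test across all 3 conditions Psma8 had an adjusted p of 0.045. Psma8 was 11.6 to 19.6% of Psma7 in Paused cells, 8.26 to 11.4% in 2i cells and 5.64 to 7.84% in Serum cells. Psmc3ip was called in no comparison, with 24.9 to 37.2 FPKM over the 9 libraries.

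Between the cell lines no proteasome gene was called. In the test across the 3 lines, with the condition in the same limma fit, 0 of 47 genes passed and 4 had an unadjusted p below 0.05 (Psmd7, Psmg2, Psme4 and Psmb8), whereas 1.5% of all rows passed and 19% had an unadjusted p below 0.05. The pairwise contrasts likewise called 0 of 47 genes in v6.5 against E14 (2.08% of all rows), Oct4 GiP against E14 (0.00787% of all rows) and v6.5 against Oct4 GiP (0.551% of all rows), with 7, 4 and 6 of 47 genes at an unadjusted p below 0.05, against 18.5%, 12.9% and 15.4% of all rows in the same order. Psmd7, a 19S lid subunit that pairs with Psmd14 and is named here after its values were seen, had the lowest adjusted p across lines at 0.10, with 99.6, 140 and 177 FPKM in Paused, 126, 164 and 162 FPKM in 2i and 144, 220 and 195 FPKM in Serum cells of E14, v6.5 and Oct4 GiP. E14 was the lowest line in every condition, and the conditions overlapped. Psmd7 was called lower in Paused than in Serum cells (-0.44 ± 0.12, adjusted p = 0.047), and not without the line block (adjusted p = 0.24). Across the 3 conditions 35 of 47 genes passed, against 54.8% of all rows.

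Genes that act with the proteasome were taken from lists. For every list below, the shares over all 12711 rows were 10.5% lower and 7.64% higher in Paused against Serum. They were 18.9% lower and 21.7% higher in 2i against Serum, and 24.6% lower and 19.8% higher in Paused against 2i. Whether a list differs from these shares was not tested. Of 17 partners (receptors, deubiquitinases, assembly and shuttle factors) 16 were tested; 5 fell and 0 rose in Paused against Serum (median -0.15), 4 fell and 0 rose in 2i against Serum (median -0.15), and 2 were lower and 1 higher in Paused against 2i (median 0.05). Pomp, which completes the beta rings, averaged 148 ± 2.6 FPKM in Paused, 147 ± 17.4 FPKM in 2i and 216 ± 11.7 FPKM in Serum cells (SD, n = 3 each), a change of -0.54 ± 0.09 (adjusted p = 0.018) in Paused and -0.56 ± 0.09 (adjusted p = 0.0056) in 2i cells against Serum. Uchl5, a 19S-bound deubiquitinase, averaged 49.8 ± 5.22, 30.4 ± 3.91 and 75.1 ± 6.57 FPKM in Paused, 2i and Serum cells. It changed by -0.58 ± 0.10 (adjusted p = 0.019) in Paused and -1.28 ± 0.10 (adjusted p = 0.0009) in 2i cells against Serum, and by 0.70 ± 0.10 (adjusted p = 0.0031) in Paused against 2i. Txnl1, a thioredoxin-like protein bound to the 19S particle, changed by -0.52 ± 0.07 (adjusted p = 0.014) in Paused against Serum and by -0.39 ± 0.07 (adjusted p = 0.0063) in Paused against 2i. Ube3c, a ubiquitin ligase on the proteasome, changed by -0.40 ± 0.09 (adjusted p = 0.013) in 2i against Serum, and Shfm1, a small lid subunit, by -0.35 ± 0.09 (adjusted p = 0.021) in Paused against 2i.

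Of 13 genes that control proteasome gene expression, 2 were measured only in joined rows, Ddi2 with Rsc1a1 and Mafg with Sirt7, and cannot be told from their partners there. Of the 13 rows, 0 were called in Paused against Serum (median -0.01; the largest change was that of Ngly1, 0.46 ± 0.15, adjusted p = 0.079), 5 rose, the joined Mafg row (0.55 ± 0.13, adjusted p = 0.017) among them, and 2 fell in 2i against Serum (median 0.12), and 4 were lower and 2 higher in Paused against 2i (median -0.23). Nfe2l1 averaged 56.7 ± 4.23 FPKM in Paused, 94.5 ± 13.9 FPKM in 2i and 58.8 ± 4.18 FPKM in Serum cells (SD, n = 3 each). It rose in 2i cells (0.67 ± 0.08, adjusted p = 0.0021) and was -0.05 ± 0.08 (adjusted p = 0.66) in Paused against Serum. Nfe2l2, its homologue in the oxidative stress response, rose by 1.06 ± 0.11 (adjusted p = 0.0016) in 2i cells, and Keap1, which directs Nfe2l2 to degradation, by 1.12 ± 0.15 (adjusted p = 0.0032). In Paused against 2i, Keap1 (-1.13 ± 0.15, adjusted p = 0.0024) and Nfe2l1 (-0.72 ± 0.08, adjusted p = 0.0013) were lower. Maff, a small partner of these factors, fell in 2i cells (-1.34 ± 0.15, adjusted p = 0.002) and was higher in Paused than in 2i cells (1.61 ± 0.15, adjusted p = 0.00097).

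Of 13 ubiquitin and ubiquitin-activating or -conjugating genes, 2 fell and 0 rose in Paused against Serum (median -0.13), 4 fell and 0 rose in 2i against Serum (median -0.26), and 1 was lower and 3 higher in Paused against 2i (median 0.10). Cdc34, a conjugating enzyme, averaged 160 ± 6.14 FPKM in Paused, 248 ± 41.8 FPKM in 2i and 283 ± 7.09 FPKM in Serum cells and changed by -0.82 ± 0.10 (adjusted p = 0.012) in Paused against Serum and -0.62 ± 0.10 (adjusted p = 0.0044) in Paused against 2i. The conjugating enzyme Ube2n also fell in Paused cells (-0.45 ± 0.12, adjusted p = 0.045). In 2i against Serum, the conjugating enzymes Ube2k (-0.56 ± 0.10, adjusted p = 0.0079) and Ube2c (-0.26 ± 0.07, adjusted p = 0.027) and the activating enzyme Uba6 (-0.45 ± 0.13, adjusted p = 0.033) fell. Uba6 (0.65 ± 0.13, adjusted p = 0.0083) and Ube2k (0.42 ± 0.10, adjusted p = 0.019) were higher in Paused than in 2i cells.

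Of 18 antigen presentation genes 16 were tested, while Nlrc5 and Irf2 were below the filter. Of the 16, 2 were measured only in joined rows, H2-D1 with H2-L and H2-Q8, and Tapbp with Rgl2 and Zbtb22. The Tapbp row was called in no comparison. In Paused against Serum 1 fell and 0 rose (median 0.02), in 2i against Serum 4 fell and 3 rose (median 0.07), and in Paused against 2i 5 were lower and 3 higher (median -0.10). Pdia3, of the peptide loading complex, was the gene called in Paused against Serum (-0.30 ± 0.07, adjusted p = 0.033). The MHC class I gene H2-K1 changed by -1.16 ± 0.27 (adjusted p = 0.016) and the peptide transporter gene Tap2 by -1.0 ± 0.24 (adjusted p = 0.019) in 2i against Serum, and the joined row of H2-D1, H2-L and H2-Q8 by -0.71 ± 0.20 (adjusted p = 0.033). In Paused against 2i, the MHC class I light chain B2m (-1.07 ± 0.32, adjusted p = 0.035) and the kinase Jak2 (-1.01 ± 0.12, adjusted p = 0.0018) were lower and the joined H2-D1 row was higher (0.93 ± 0.20, adjusted p = 0.012).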

How the data were processed

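RNA-seq libraries of 9 mouse ES cell samples (3 conditions in 3 lines) were analysed from a gene table holding 2 columns per library. The authors' first column holds FPKM, and the second, a normalized signal, equals the deposited FPKM times 1 constant per library (1.81 to 3.74), whose origin is not given. Per library, 250 ng of total RNA with ERCC spike-ins was used, per the labels' protocols. Values came from Cuffnorm on mm10, per the submitters' processing notes; the sources used here give no aligner, annotation or strand setting. Of 29801 rows, 5644 without a symbol and 113 identical repeats were left out.

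FPKM + 1 were log2-transformed and fitted with limma 3.58.1 (R 4.3.3, trend) over 12711 rows with at least 1 FPKM in 3 libraries, all 9 libraries in 1 fit with the line as block and Benjamini-Hochberg adjustment. The labels tie libraries by cell line; deviations of same-line libraries from their condition means correlated at -0.001 to 0.401, those of different lines at -0.243 to 0.094. The fit was tested on simulated data. Named were the catalytic, immunoproteasome, activator, inhibitor and Psma8 genes, and per comparison the 3 called genes with the largest change of each class or list; others are marked. Members, lists and tests were chosen with earlier results of these data known. Alternatives were pseudocounts of 0.1 and 5, no or a stricter filter, the second columns, centring on the median gene, no block, only the libraries compared, summed rows, leaving out libraries and lines and, added after seeing the data, a length and GC term. Promoters are from RefSeq, gene coordinates from GENCODE M21 (GRCm38).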

Additional observations from a re-analysis of the deposited data

How the results depend on the processing

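Medians of the 47 genes kept their sign throughout; counts of calls did not hold, and depth is unknown. For Paused against Serum (median -0.39, 22 lower, 0 higher) the median was -0.36 with a pseudocount of 5, -1.33 on the authors' second columns, -0.42 relative to the median gene and -0.30 with the length and GC term, and -0.41 to -0.36 without single libraries. The count of lower genes was 45 on the second columns (9779 of all 12711 rows) and 13 with the length and GC term. It was 0 without any of the 3 lines, where 1, 4 and 1 of all rows were lower without E14, v6.5 and Oct4 GiP. Without single libraries it was 0 to 31 (0.0315% to 14.6% of all rows). The share of all rows with the length and GC term is not given here. The count of higher genes was 1 (Psma8) in a fit of only the 6 libraries compared and 0 to 1 without single libraries. For 2i against Serum (median -0.21, 19 lower, 2 higher) the median was -0.58 on the second columns and -0.32 relative to the median gene. Lower genes numbered 34 on the second columns (4538 of all rows) and 5 with only 6 libraries. They numbered 4 without v6.5 and 1 without Oct4 GiP (9.64% and 4.36% of all rows). Without single libraries they numbered 2 to 24 (2 without Serum Oct4 GiP, with 10.5% of all rows). Higher genes numbered 0 on the second columns (1240 of all rows) and with only 6 libraries (12.9% of all rows). They also numbered 0 without E14, v6.5 or Oct4 GiP (16.5%, 11.4% and 5.63% of all rows). They numbered 1 relative to the median gene and with the length and GC term, and 0 to 2 without single libraries. For Paused against 2i (median -0.15, 14 lower, 2 higher) the median was -0.71 on the second columns. Lower genes numbered 39 there (6922 of all rows) and 7 with only 6 libraries. They numbered 5, 6 and 2 without E14, v6.5 and Oct4 GiP (17.0%, 16.4% and 9.84% of all rows). Without single libraries they numbered 5 to 13 (5 without Paused E14 or Paused Oct4 GiP, with 15.9% and 17.7% of all rows). Higher genes numbered 1 with a pseudocount of 5, on the second columns (789 of all rows) and without v6.5 (12.9% of all rows). They numbered 4 relative to the median gene and without E14 (13.9% of all rows), and 1 to 5 without single libraries. Across the 3 conditions (35 called) 22, 7 and 1 were called without E14, v6.5 and Oct4 GiP and 15 to 39 without single libraries. For this test the shares of all rows in these fits are not given here. Fits without single libraries or lines called fewer of all rows in each comparison, except that without 2i E14 in the comparisons with Serum (14.6% and 21.2% of all rows lower in Paused and 2i cells). With only the 6 libraries compared, 12.5% of all rows were lower in Paused and 10.5% in 2i against Serum, and 20.1% in Paused against 2i. Otherwise the cause was not tested.

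Without the replicate block of the cell line the counts were 21 lower in Paused against Serum, 20 lower and 0 higher in 2i against Serum, and 14 lower and 1 higher in Paused against 2i; lost calls not given above were those of Psmd3 and Psme4 in Paused against 2i (adjusted p = 0.076 and 0.10). Psme4 in 2i against Serum turned to -0.12 on the second columns. Calls that held without each library in turn were Psmg1 and Psmg2 in 2i against Serum, and Psmb3, Psmb6, Psmd8, Psmd13, Psmg2 and Psmg4 in Paused against 2i. Those of the joined Ctrl,Psmb10 row held in both of these comparisons too. The share of all called rows that held is not given here.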
